A study of Mus musculus with 9 samples.

Results

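The 10 genes studied here belong to the death receptor, necroptosis and pyroptosis pathways: Fas, Tnfrsf1a, Casp8, Bid, Ripk1, Ripk3, Mlkl, Casp1, Casp4 and Gsdmd. Their levels were followed through RNA-seq libraries of mouse liver. They were taken by gene name, and all 10 were present among the 42188 genes of the deposited count table and passed the filter on low counts. The 9 libraries fell into 3 groups of 3, all described as livers of wild-type male C57BL/6 mice aged 8 weeks and weighing 20 to 25 g. MSA_ConA mice received MSA at 250 mg/kg into the peritoneum 6 h before ConA, and ConA mice received ConA alone at 20 mg/kg into the tail vein, the same dose as in MSA_ConA mice. Control mice received phosphate-buffered saline through the tail vein, and the treated livers were taken 12 h after ConA. ConA is concanavalin A, a lectin from jack beans that stimulates T cells and serves as a standard model of immune hepatitis in mice; the labels do not spell out MSA. Each library is a whole-liver extract, so for every gene fewer cells of a type and less RNA per cell cannot be told apart.

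The 10 genes cover 3 routes of regulated cell death that share their first steps. The receptors encoded by Fas and Tnfrsf1a recruit caspase-8 (Casp8), which starts apoptosis and in hepatocytes cleaves BID (Bid) to bring in mitochondria, while the kinase RIPK1 (Ripk1) sits in the TNF receptor complex and can drive survival or death. When caspase-8 is held back, RIPK1 and RIPK3 (Ripk3) activate MLKL (Mlkl), which breaks the plasma membrane in necroptosis. In pyroptosis, caspase-1 (Casp1) or caspase-11, the product of mouse Casp4, cleaves gasdermin D (Gsdmd), whose fragment forms membrane pores. Death of hepatocytes through TNF and Fas signalling is a known feature of ConA hepatitis.

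The libraries were divided by their labelled number, 1 against 2 and 3, in every group, and some transcripts went against the labels' single sex and strain. In number 1 the X-inactivation RNA Xist reached no more than 0.485 CPM, whereas numbers 2 and 3 lay at 667 CPM or above and up to 1132 CPM. The male-biased liver gene Mup21 divided them the other way, from 251 CPM up to 669.7 CPM in number 1 and never above 1.44 CPM elsewhere; its family has near-identical copies that can share reads. For Nnt, part of which is deleted in the C57BL/6J substrain, number 1 spanned 29.8 to 34.7 CPM and the remaining libraries 168 to 266 CPM. For the clock gene Arntl, number 1 spanned 22.1 to 29.6 CPM and the remaining libraries 1.35 to 3.60 CPM. What the number stands for is not given in the labels, so sex, strain, time of day and any other property of the animals numbered 1 cannot be told apart from one another. Totals ran from 13294600 to 17276391 counts per library, and a gene with 3 counts lay at 0.155 to 0.396 CPM, the floor used here. CPM is the count of a gene scaled to a common library total, here with TMM factors (trimmed mean of M values).

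Over all 9 libraries, no member passed the test in any of the 3 comparisons of groups, and neither did any other gene. edgeR's quasi-likelihood test with Benjamini-Hochberg adjustment called 0 of 14603 genes (0%) for MSA_ConA against ConA, 0 (0%) for ConA against Control and 0 (0%) for MSA_ConA against Control. At an unadjusted p under 0.05 the counts were 248, 563 and 730 genes, and DESeq2 called 0, 2 and 55 genes in the same order, with 0 of the 10 members among them. The members' median log2 ratio was -0.90 for MSA_ConA against ConA, beside 0.02 over all genes tested. It was 1.03 for ConA against Control, beside 0.07, and 0.41 for MSA_ConA against Control, beside 0.07. The spread within groups was large: Mlkl, for example, averaged 4.91 ± 3.00 CPM in MSA_ConA livers, 19.6 ± 24.0 CPM in ConA livers and 6.64 ± 2.21 CPM in Control livers (SD, n = 3 each). Casp4 averaged 2.93 ± 1.69 CPM in MSA_ConA livers, 9.42 ± 14.0 CPM in ConA livers and 1.38 ± 0.278 CPM in Control livers (SD, n = 3 each), with a log2 ratio of 2.75 (SE 1.15) for ConA against Control. The library numbered 1 carried most of this spread, as the plot of the 10 genes by library shows.

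**Figure D1:**
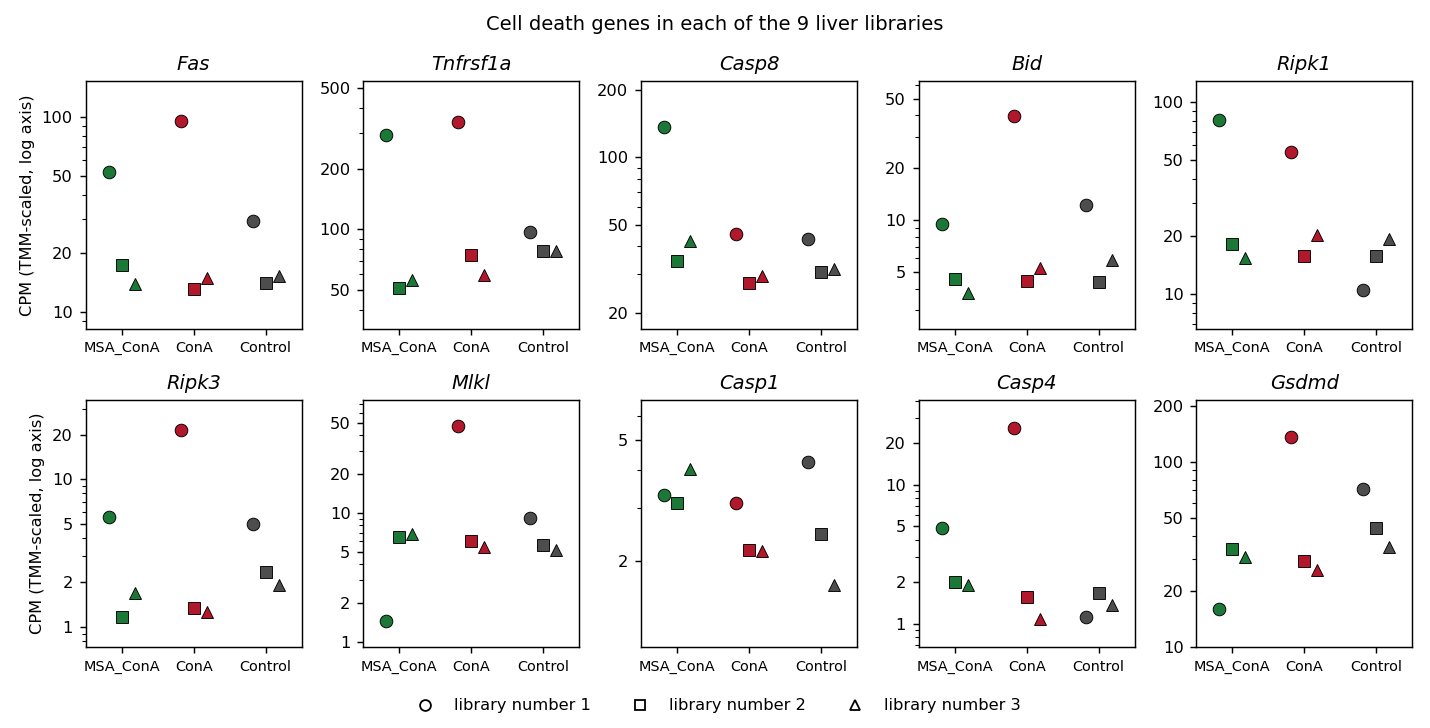
TMM-scaled CPM of the 10 cell death genes in each library (log axes, a scale for each gene), with MSA_ConA, ConA and Control from left to right and circles, squares and triangles for library numbers 1, 2 and 3. The circle of ConA lies above every other point of its panel for Fas, Tnfrsf1a, Bid, Ripk3, Mlkl, Casp4 and Gsdmd, the circle of MSA_ConA is the highest for Casp8 and Ripk1, and numbers 2 and 3 lie close together in all groups.

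The libraries numbered 1 were therefore set against each other, as ratios of CPM between single libraries with exact 95% limits that cover counting error only, and the ratio in number 1 was tested against that in numbers 2 and 3. Among the 10 members, 7 were at least 2-fold higher in the library labelled ConA 1 than in Control 1 and 0 were at least 2-fold lower, where 22.3% of all genes tested were that much higher and 25.3% that much lower. For MSA_ConA 1 against ConA 1 the counts were 1 member higher and 5 lower, with 17.8% and 22.5% of all genes. For MSA_ConA 1 against Control 1 it was 4 higher and 2 lower, with 19.8% and 27.1% of all genes. On library totals in place of TMM this last balance turned to 2 members higher (Ripk1 and Casp4) and 4 lower (Mlkl, Gsdmd, Bid and Casp1), with 10% and 44.4% of all genes. In numbers 2 and 3, 0 members were past 2-fold either way for MSA_ConA against ConA, as were 8.24% and 10.3% of all genes, and 0 for ConA against Control, as were 9.11% and 7.12%. For MSA_ConA against Control there was 1 member in each, where 12.6% and 12.7% of all genes passed. These were Ripk3, 2.02-fold lower in MSA_ConA 2 than in Control 2 (1.18 to 3.57), and Casp1, 2.42-fold higher in MSA_ConA 3 than in Control 3 (1.58 to 3.77). Ripk3 was just short of 2-fold lower with relative log expression or FPKM scaling, and on library totals Casp1 reached 2.01-fold in MSA_ConA 3 over ConA 3.

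The test of the difference between number classes used a mean for each group and class, with 3 residual degrees of freedom, and takes the single number 1 library of each group to vary as the other libraries do. It called 7 of the 10 members for MSA_ConA against ConA, 1 higher and 6 lower in number 1, where 18.7% of all genes tested were called, 8.59% higher and 10.1% lower. That count fell to 3 members, Mlkl, Casp4 and Gsdmd, without the library ConA 2 or without ConA 3, and was 5 with the replicate block or with DESeq2. For ConA against Control it called 8 members, all with a higher ratio in number 1, where 31.1% of all genes were called, 15.7% higher and 15.4% lower. For MSA_ConA against Control it called 6 members, 4 higher and 2 lower, where 32.6% of all genes were called, 16.0% higher and 16.6% lower. The first and second of these comparisons share the ConA libraries, and so their values are given side by side and not counted as separate evidence.

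**Figure D2:**
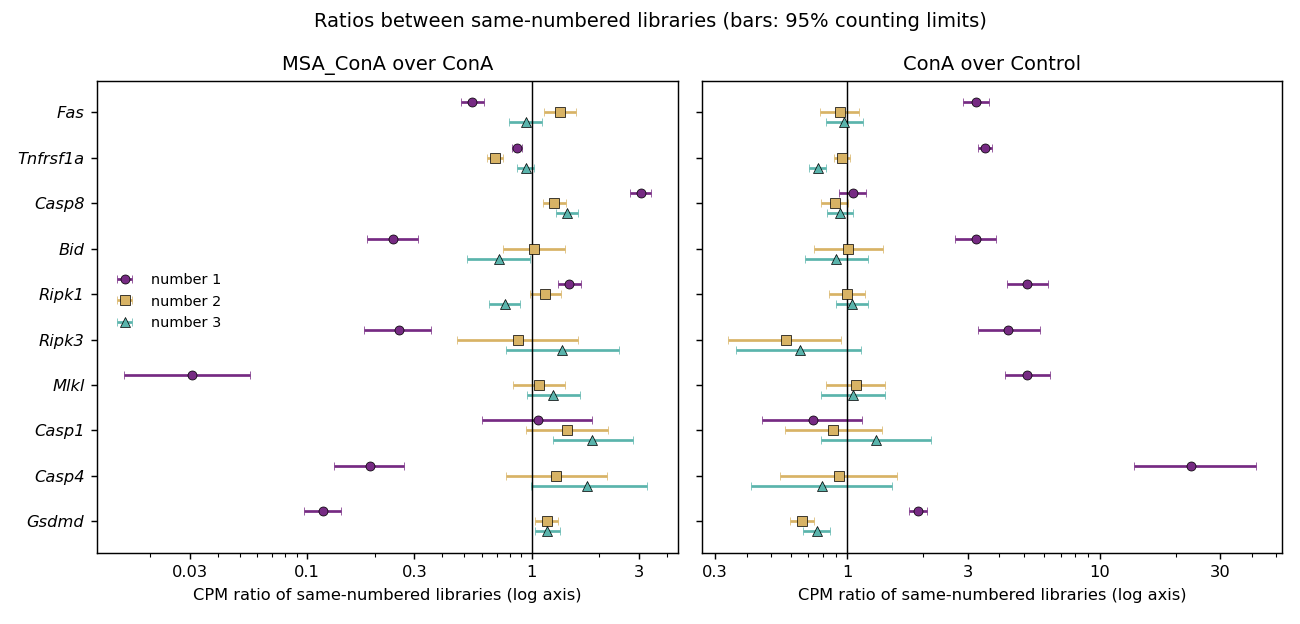
Ratio of CPM between same-numbered libraries for each of the 10 genes (log axis), MSA_ConA over ConA on the left and ConA over Control on the right, with bars for the exact 95% counting limits. In number 1 the ratios run from 0.0307 (Mlkl) to 3.05 (Casp8) on the left and from 0.731 (Casp1) to 22.9 (Casp4) on the right, while those of numbers 2 and 3 stay between 0.571 and 1.86 in both panels.

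With TMM scaling the members Casp4, Ripk1 and Mlkl were over 5-fold higher in ConA 1 than in Control 1. Their promoters are shown for that reason, a choice made after their values were seen. On library totals Ripk1 was 3.66-fold and Mlkl 3.65-fold higher. The sequences are RefSeq's for GRCm38.p6, from 250 bases before to 50 bases after the annotated start, and 9 of the 10 members had an entry, 11 promoters in all. Both strands were searched for 3 motifs: the interferon gamma-activated site (GAS, TTCNNNGAA), the interferon-stimulated response element (ISRE, a pair of GAAA repeats with 2 bases between them) and the NF-kappa-B consensus. Capitals mark the matches, and the start base is counted as 0.
Casp4 promoter, chr9:5308599-5308898, plus strand: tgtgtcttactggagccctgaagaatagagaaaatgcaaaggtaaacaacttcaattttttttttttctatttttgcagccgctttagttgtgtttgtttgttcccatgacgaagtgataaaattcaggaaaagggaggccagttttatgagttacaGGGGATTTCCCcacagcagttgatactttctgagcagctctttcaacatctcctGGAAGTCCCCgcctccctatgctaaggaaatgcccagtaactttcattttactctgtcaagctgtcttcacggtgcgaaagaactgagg
Ripk1 promoter, chr13:34002624-34002923, plus strand: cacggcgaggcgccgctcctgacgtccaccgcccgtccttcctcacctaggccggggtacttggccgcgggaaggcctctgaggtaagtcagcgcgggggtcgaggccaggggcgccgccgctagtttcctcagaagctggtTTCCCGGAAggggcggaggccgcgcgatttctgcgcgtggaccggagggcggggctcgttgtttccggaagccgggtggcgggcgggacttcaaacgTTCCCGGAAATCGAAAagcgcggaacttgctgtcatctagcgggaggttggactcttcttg
Mlkl promoter, chr8:111338156-111338455, minus strand: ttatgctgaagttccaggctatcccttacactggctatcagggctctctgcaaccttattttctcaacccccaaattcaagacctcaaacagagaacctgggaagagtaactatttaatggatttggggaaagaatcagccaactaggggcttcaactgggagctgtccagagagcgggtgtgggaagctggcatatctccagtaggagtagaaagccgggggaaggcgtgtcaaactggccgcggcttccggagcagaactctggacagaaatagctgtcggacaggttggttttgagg
The Casp4 promoter held an overlapping pair of NF-kappa-B matches from -93 to -83 and a further match on the other strand from -39 to -30. The consensus occurred in 8.46% of 32851 promoters of the same length. The Ripk1 promoter, the second of its pair of annotated starts, held a GAS match from -108 to -100 and another from -11 to -3, which overlapped an ISRE match from -5 to 4. GAS occurred in 8.3% and ISRE in 3.44% of all promoters, and GAS was also found before Fas and Tnfrsf1a. The window of the first annotated Ripk1 start (not shown) held none of the 3 letter patterns, and neither did the Mlkl window. A match is a description of the letters, and binding was not measured.

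Both receptor genes were over 3-fold higher in ConA 1 than in Control 1 with TMM scaling and showed no such ratio in numbers 2 and 3. On library totals the ratios in number 1 were 2.30 for Fas and 2.48 for Tnfrsf1a. Fas (chr19:33974321-34011963 in the C57BL/6NJ assembly, whose gene models the table uses), the death receptor for Fas ligand, measured 52.1, 17.6 and 14.0 CPM in MSA_ConA 1, 2 and 3. In ConA it measured 95.8, 13.2 and 14.9 CPM, and in Control 29.5, 14.1 and 15.4 CPM. Each library numbered 1 stood above the other 2 of its group, and ConA 1 was the highest of all. The ratio of ConA 1 to Control 1 was 3.25 (2.89 to 3.66), a log2 difference of 1.77 (SE 0.28) from numbers 2 and 3 (edgeR, Benjamini-Hochberg adjusted p = 0.00452). MSA_ConA 1 had 0.544 of the level in ConA 1 (0.483 to 0.612), and the difference from numbers 2 and 3 was -1.05 (SE 0.28; edgeR, adjusted p = 0.0403). That call was lost under 9 of the alternatives, the replicate block among them (adjusted p = 0.0758; range over alternatives 0.0141 to 0.106).

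Tnfrsf1a (chr6:132099144-132112306), which encodes TNF receptor 1, measured 292.6, 51.5 and 56.0 CPM in MSA_ConA. It measured 340.0, 74.9 and 59.7 CPM in ConA and 97.0, 78.6 and 78.2 CPM in Control. The high values were those of MSA_ConA 1 and ConA 1, and the 3 Control libraries lay close together. ConA 1 was 3.50-fold above Control 1 (3.29 to 3.74), a difference of 2.03 (SE 0.28) from numbers 2 and 3 on the log2 scale (edgeR, adjusted p = 0.00276). MSA_ConA 1 was also above Control 1, 3.02-fold (2.82 to 3.23) and on library totals 1.81-fold (1.69 to 1.94), with a difference of 2.14 (SE 0.28; edgeR, adjusted p = 0.00221). Between MSA_ConA 1 and ConA 1 the ratio was 0.861 (0.816 to 0.908), and the test did not separate it from numbers 2 and 3 (0.11, SE 0.27, adjusted p = 0.825). In all 3 same-numbered pairs Tnfrsf1a was lower in MSA_ConA than in ConA, as was the case for 12.7% of all genes tested, but on library totals the ratio in number 3 was 1.01 in place of 0.938.

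Of the genes whose proteins carry the receptor signal, Casp8 was the highest in MSA_ConA 1 relative to ConA 1. Casp8 (chr1:61066741-61112266), the initiator caspase, measured 137.7, 34.3 and 42.3 CPM in MSA_ConA, against 45.1, 27.2 and 29.4 CPM in ConA and 42.9, 30.6 and 31.4 CPM in Control. All 3 MSA_ConA libraries were above the ConA library of the same number, with ratios of 3.05 (2.73 to 3.41), 1.26 (1.12 to 1.42) and 1.44 (1.28 to 1.61). Casp1 was the other member higher in MSA_ConA in all 3 pairs, as were 10.8% of all genes, although on library totals its ratio in number 1 was below 1. The Casp8 ratio was larger in number 1 by 1.18 (SE 0.26) on the log2 scale (edgeR, adjusted p = 0.0232), a call lost on library totals and without the library MSA_ConA 2, ConA 2 or ConA 3 (range over alternatives 0.00904 to 0.0699). ConA 1 and Control 1 did not differ beyond counting error (ratio 1.05, 0.930 to 1.19), and on library totals the ratio turned to 0.746.

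Bid (chr6:126982053-127008967), which encodes the caspase-8 substrate that permeabilizes mitochondria, measured 9.50, 4.54 and 3.77 CPM in MSA_ConA. It measured 39.4, 4.44 and 5.29 CPM in ConA and 12.2, 4.39 and 5.83 CPM in Control. The ConA 1 value stood alone, 3.22-fold above Control 1 (2.68 to 3.89, and 2.28-fold on library totals), and MSA_ConA 1 was 4.15-fold below ConA 1 (3.22 to 5.41). These ratios differed from those of numbers 2 and 3 by 1.76 (SE 0.39; edgeR, adjusted p = 0.0153) and by -1.83 (SE 0.40; adjusted p = 0.0229). The second call was lost without the library ConA 2 or ConA 3 (range over alternatives 0.0108 to 0.0609), and the first without Control 3 (0.00988 to 0.0505). Bid overlaps Bcl2l13 on the opposite strand, and since no strand setting of the counting is given in the sources used here, reads in the overlap cannot be told apart.

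Ripk1 (chr13:33175920-33213061), the kinase shared by the survival and death complexes, measured 80.5, 18.2 and 15.4 CPM in MSA_ConA, against 54.8, 15.9 and 20.3 CPM in ConA and 10.6, 15.9 and 19.5 CPM in Control. The library Control 1 was the lowest of the 9 and MSA_ConA 1 the highest. The ratio to Control 1 was 7.60 (6.32 to 9.19; 4.57 on library totals) for MSA_ConA 1 and 5.17 (4.29 to 6.26) for ConA 1. Both differed from numbers 2 and 3, by 3.00 (SE 0.33; edgeR, adjusted p = 0.00133) and by 2.33 (SE 0.33; adjusted p = 0.00309). MSA_ConA 1 was 1.47-fold above ConA 1 (1.31 to 1.65), a ratio that the test did not separate from numbers 2 and 3 (0.66, SE 0.32, adjusted p = 0.182). Ripk1 overlaps Serpinb6a on the opposite strand, with the same limit as for Bid.

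The necroptosis genes Ripk3 and Mlkl were both higher in ConA 1 than in Control 1, and both were lower in MSA_ConA 1 than in ConA 1. Ripk3 (chr14:52324750-52328611), the kinase that phosphorylates MLKL, measured 5.54, 1.16 and 1.70 CPM in MSA_ConA, 21.6, 1.34 and 1.25 CPM in ConA and 4.996, 2.35 and 1.93 CPM in Control. It rested on few counts, 21 to 45 in each library numbered 2 or 3. ConA 1 was 4.33-fold above Control 1 (3.28 to 5.78), a difference of 2.83 (SE 0.52) from numbers 2 and 3 (edgeR, adjusted p = 0.00741). MSA_ConA 1 was 3.91-fold below ConA 1 (2.80 to 5.57), with a difference of -2.11 (SE 0.52; edgeR, adjusted p = 0.0329). This call was lost with DESeq2, with the replicate block (adjusted p = 0.0680) and without MSA_ConA 3, ConA 2 or ConA 3 (range over alternatives 0.00705 to 0.0865).

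Mlkl (chr8:118075028-118101214, minus strand), the executioner of necroptosis, had the widest range of the members over the 9 libraries, 32.6-fold. It measured 1.45, 6.48 and 6.81 CPM in MSA_ConA, against 47.3, 6.04 and 5.46 CPM in ConA and 9.17, 5.59 and 5.15 CPM in Control. MSA_ConA 1 was the lowest library, at 11 counts, and ConA 1 the highest, at 487 counts, with the other 7 between 5.15 and 9.17 CPM. MSA_ConA 1 was thus 32.6-fold below ConA 1 (18.1 to 65.7) and 6.32-fold below Control 1 (3.41 to 13.0). The ratio to ConA 1 differed from numbers 2 and 3 by -5.23 (SE 0.38; edgeR, adjusted p = 0.000467), the lowest adjusted p among the members, and passed under all 14 alternatives (range 3.85e-12 to 0.00359). ConA 1 was 5.16-fold above Control 1 (4.22 to 6.33), a difference of 2.27 (SE 0.32; edgeR, adjusted p = 0.0031). In numbers 2 and 3 the ratio of MSA_ConA to ConA was 1.07 (0.824 to 1.40) and 1.25 (0.952 to 1.64), on the other side of 1.

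The genes of the pyroptosis caspases are neighbours on chromosome 9, and of the pair the tests of the difference called Casp4 alone with TMM scaling. Casp1 (chr9:2205792-2214562), the inflammasome caspase, measured 3.30, 3.10 and 4.02 CPM in MSA_ConA, 3.11, 2.17 and 2.16 CPM in ConA and 4.25, 2.46 and 1.67 CPM in Control. The groups overlapped. With TMM the limits of its ratios in number 1 held the value 1 (1.06, 0.603 to 1.85, for MSA_ConA 1 over ConA 1, and 0.731, 0.459 to 1.15, for ConA 1 over Control 1), and no test of the difference called it. On library totals MSA_ConA 1 was at 0.466 (0.279 to 0.759) and ConA 1 at 0.518 (0.325 to 0.812) of Control 1, and the difference for MSA_ConA against Control was then called (-1.97, SE 0.65; edgeR, adjusted p = 0.0454). Casp4 (chr9:2216125-2249033), whose caspase senses intracellular lipopolysaccharide, measured 4.88, 1.99 and 1.91 CPM in MSA_ConA, 25.6, 1.55 and 1.08 CPM in ConA and 1.12, 1.67 and 1.35 CPM in Control. ConA 1 held 264 counts and every other library at most 37. Its ratio to Control 1 was 22.9 (13.6 to 41.5), the largest ratio of any member, and the difference from numbers 2 and 3 was 4.71 (SE 0.56; edgeR, adjusted p = 0.00157). MSA_ConA 1 was 5.25-fold below ConA 1 (3.71 to 7.62; difference -2.95, SE 0.52; adjusted p = 0.0109), and both calls passed under all 14 alternatives. MSA_ConA 1 was also 4.36-fold above Control 1 (2.34 to 8.56; 2.62-fold on library totals), with a difference of 1.75 (SE 0.56; edgeR, adjusted p = 0.0478) that was lost under 9 alternatives, including the replicate block (0.0654; range 0.0284 to 0.250).

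Gsdmd (chr15:78738745-78743810), the pore-forming substrate of both caspases, measured 16.0, 33.8 and 30.7 CPM in MSA_ConA. It measured 135.5, 29.1 and 26.1 CPM in ConA and 71.0, 43.7 and 34.5 CPM in Control. As for Mlkl, MSA_ConA 1 was the lowest of the 9 libraries and ConA 1 the highest. MSA_ConA 1 was 8.49-fold below ConA 1 (7.05 to 10.3) and 4.45-fold below Control 1 (3.68 to 5.42), and these ratios differed from numbers 2 and 3 by -3.31 (SE 0.30; edgeR, adjusted p = 0.000985) and -1.88 (SE 0.29; adjusted p = 0.00391). In numbers 2 and 3 MSA_ConA was above ConA, at ratios of 1.17 (1.04 to 1.31) and 1.17 (1.04 to 1.33). ConA was above Control in number 1, at 1.91 (1.76 to 2.08), and below it in numbers 2 and 3, at 0.665 (0.597 to 0.741) and 0.758 (0.671 to 0.855), a difference of 1.43 (SE 0.28; edgeR, adjusted p = 0.00932). Gsdmd was the only member lower in MSA_ConA than in Control in all 3 same-numbered pairs, as were 17.1% of all genes, but on library totals its ratio in number 3 was 1.01 in place of 0.890. Casp8 and Casp4 were higher in all 3, as were 16.0%, and on library totals Fas joined them. Ripk1 and Mlkl were the members higher in ConA than in Control in all 3 pairs, as were 17.6% of all genes, and no member was lower in all 3, against 18.1%. For Ripk1 the ratio in number 2 was 1.00 (308 against 304 counts) and lay below 1 with relative log expression (0.979) or FPKM scaling (0.980), and on library totals Casp8 was lower in all 3.

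**Figure D3:**
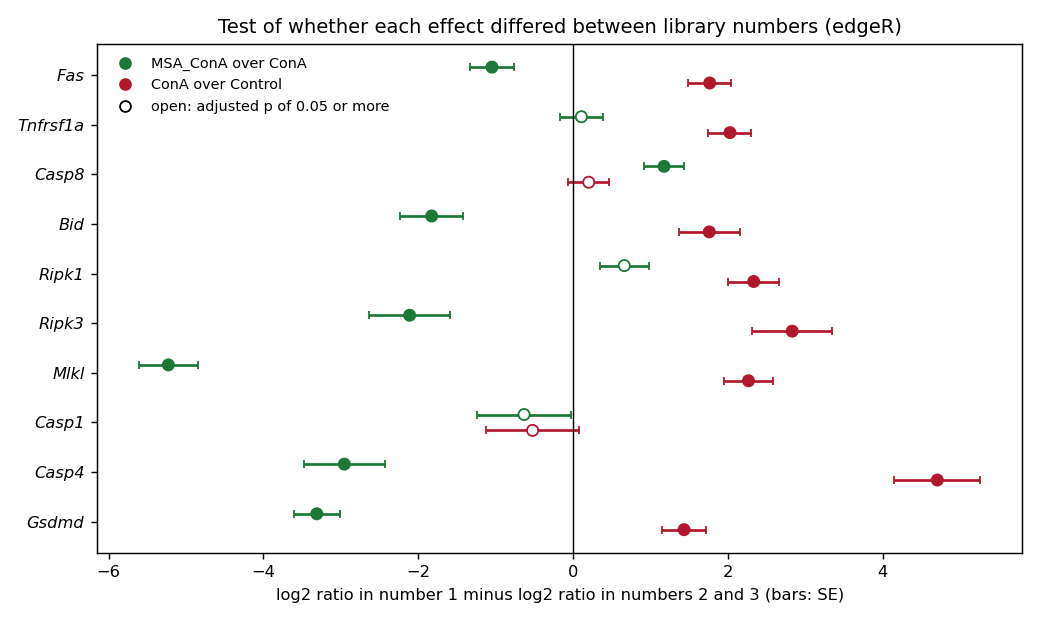
Log2 ratio in number 1 minus that in numbers 2 and 3 for each of the 10 genes, with the SE as bars, for MSA_ConA over ConA (green) and ConA over Control (red); filled points have an edgeR adjusted p under 0.05. Mlkl (-5.23), Gsdmd (-3.31) and Casp4 (-2.95) lie farthest left in green and Casp4 (4.71) farthest right in red, while the Casp1 points are open in both.

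The balance between genes, read from the deposited FPKM (counts scaled by gene length and library size, so that genes can be compared), moved with these changes. Casp8 over Mlkl was 75.5 in MSA_ConA 1, 0.760 in ConA 1 and 3.72 in Control 1, and between 3.59 and 4.94 in the 6 libraries numbered 2 and 3. Ripk1 over Ripk3 was 4.65 in MSA_ConA 1, 0.809 in ConA 1 and 0.678 in Control 1, with 2.16 to 5.21 in the others. Gsdmd over Casp4 was 6.83 in MSA_ConA 1, 11.1 in ConA 1 and 132.6 in Control 1, with 33.6 to 54.6 in the others. These single-library ratios have no replicate check in number 1 and are given without counting limits. Some rest on few counts, such as 11 for Mlkl in MSA_ConA 1 and 15 for Casp4 in Control 1.

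In the 6 libraries numbered 2 and 3 the members kept a narrow range whatever the treatment. The highest library was 1.32-fold (Ripk1 and Mlkl) to 2.42-fold (Casp1) above the lowest, where the median over 13283 genes with a mean of at least 1 CPM was 1.62-fold. By deposited FPKM the order of the medians was Tnfrsf1a 25.4, Gsdmd 17.9, Casp8 10.5, Fas 7.99, Ripk1 2.76, Mlkl 2.45, Casp1 1.53, Bid 1.25, Ripk3 0.748 and Casp4 0.422 FPKM. Neighbours in this order had overlapping ranges, except Gsdmd above Casp8 (14.7 to 24.2 against 9.06 to 14.1 FPKM), Fas above Ripk1 (7.03 to 9.76 against 2.43 to 3.31 FPKM) and Ripk3 above Casp4 (0.593 to 1.18 against 0.291 to 0.538 FPKM). A fit of these 6 libraries alone called 0 of 14851 genes (0%) for each of the 3 comparisons (edgeR, Benjamini-Hochberg), with 767 genes at an unadjusted p under 0.05 for MSA_ConA against ConA, 1725 for ConA against Control and 3578 for MSA_ConA against Control. The smallest member p-values there were for Casp8 in MSA_ConA against ConA (log2 ratio 0.45, SE 0.15, adjusted p = 0.929), Gsdmd in ConA against Control (-0.52, SE 0.16, adjusted p = 0.414) and Tnfrsf1a in MSA_ConA against Control (-0.54, SE 0.15, adjusted p = 0.107).

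Part of the division was already present in saline-treated animals. Control 1 was above Control 2 and 3 for 5 of the 10 members, where 27.8% of all genes were called, 12.1% higher and 15.7% lower: Bid (log2 ratio 1.26, SE 0.27; edgeR, adjusted p = 0.0155), Ripk3 (1.22, SE 0.35; 0.0390), Fas (1.00, SE 0.19; 0.0108), Gsdmd (0.86, SE 0.19; 0.0172) and Mlkl (0.77, SE 0.22; 0.0402). The count of called members was 3 with the replicate block, with DESeq2 or on library totals. On library totals the 3 were Fas and Bid, higher in Control 1, and Ripk1, lower (edgeR, log2 ratio -1.01, SE 0.22, adjusted p = 0.0140). Fewer members were called without Control 2 or without Control 3, where a class then holds a single library. In the main fit the ratio was -0.74 for Ripk1 (SE 0.24, adjusted p = 0.0584) and -0.43 for Casp4 (SE 0.42, adjusted p = 0.471). Without the filter on low counts Ripk1 was also called lower (edgeR, -0.78, SE 0.25, adjusted p = 0.0376).

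For each member the genes with the most similar profile were sought among 12781 other genes by the correlation of log2(CPM + 0.5) over the 9 libraries, a description that rests on the shared division by number. The closest gene was Tm4sf1 for Mlkl (Pearson r 0.991), followed by the interferon-induced genes Parp14 and Cmpk2 (both 0.989). For Casp4 the order was a gene named only by its identifier (0.990), Rps4x (0.989) and Map3k14 (0.989), which encodes the NF-kappa-B-inducing kinase. For Gsdmd it was Tbl3 (0.978), Vps51 (0.977) and Dhx58 (0.977), an antiviral RNA sensor gene. First-ranked genes of 6 further members were Rnd1 for Fas (0.992), Zswim8 for Tnfrsf1a (0.998), Ociad1 for Casp8 (0.984), Thap4 for Bid (0.983), Nup214 for Ripk1 (0.995) and Dock2 for Casp1 (0.925). Among the members themselves the closest were Bid with Ripk3 (0.960) and Fas with Ripk3 (0.947). Fas with Tnfrsf1a (0.936), Fas with Bid (0.935) and Mlkl with Gsdmd (0.931) came next.

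The partners of the 10 genes, listed by function, included the ligands that start these pathways. The counts of called partners below stand beside 18.7% of all genes called for MSA_ConA against ConA and 31.1% for ConA against Control. Tnf had 0 counts in MSA_ConA 1 and 151 counts in ConA 1, at least 37.0-fold lower when set against the floor of 3 counts, and 9 counts in Control 1. Fasl was at 6 counts or fewer in all 9 libraries and could not be compared at this depth. Tnfsf10, the TRAIL ligand gene, was at 0 counts in MSA_ConA 1, against 38 in ConA 1 (at least 9.32-fold lower) and 30 in Control 1. Of the other death ligands and receptors tested, 8 in all, 0 were called higher and 3 lower in number 1 for MSA_ConA against ConA (Tnfsf10, Ltb and Tnfrsf21), and 4 higher and 0 lower for ConA against Control. The 4 included Tnfrsf12a, the TWEAK receptor gene, at 105 CPM in MSA_ConA 1, 234 CPM in ConA 1 and 7.01 CPM in Control 1 (log2 difference for ConA against Control 5.08, SE 0.37; edgeR, adjusted p = 0.000301).

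Among 17 adaptors, ubiquitin ligases and brakes of the receptor complexes, 2 were called higher and 6 lower in number 1 for MSA_ConA against ConA, and 6 higher and 3 lower for ConA against Control. Tnfaip3, which encodes the ubiquitin-editing brake A20, measured 6.33 CPM in MSA_ConA 1, 1076 CPM in ConA 1 and 1.42 CPM in Control 1. Birc3, an inhibitor of apoptosis that ubiquitinates RIPK1, measured 25.2 CPM in MSA_ConA 1, 239.6 CPM in ConA 1 and 12.4 CPM in Control 1 (log2 difference for MSA_ConA against ConA -3.23, SE 0.28; edgeR, adjusted p = 0.000837). Cflar, which encodes the caspase-8 inhibitor c-FLIP, measured 70.7, 124 and 57.3 CPM in MSA_ConA 1, ConA 1 and Control 1 and was not called in the comparison of MSA_ConA with ConA (-0.68, SE 0.31, adjusted p = 0.161). Fadd, the adaptor that links receptors to caspase-8, was lower in ConA 1 (3.01 CPM) than in Control 1 (9.10 CPM), with a difference of -1.45 (SE 0.41; edgeR, adjusted p = 0.0342).

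In the BCL-2 family, 2 of 13 tested members were called higher in number 1 and 0 lower for MSA_ConA against ConA. Over all genes, 8.59% were called higher and 10.1% lower in that comparison. In ConA against Control the family had 4 called higher and 0 lower, where 31.1% of all genes were called, 15.7% higher and 15.4% lower. Both arms of the family were among the 4, the death-promoting Bax and Bcl2l11 and the protective Bcl2l1 and Mcl1. Of 11 executioner and apoptosome genes, 0 were called either way for MSA_ConA against ConA. Among the 11, 1 was called higher and 2 lower for ConA against Control, beside the same shares of all genes. The one that was higher, Apaf1, which forms the apoptosome, measured 35.6 CPM in MSA_ConA 1, 36.6 CPM in ConA 1 and 3.21 CPM in Control 1.

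Of 8 necroptosis sensors and regulators, 2 were called higher and 2 lower for MSA_ConA against ConA, and 3 higher and 0 lower for ConA against Control. Zbp1, a nucleic acid sensor that engages RIPK3, had the same order of libraries in number 1 as Mlkl: it measured 7.12 CPM in MSA_ConA 1, 122.7 CPM in ConA 1 and 22.5 CPM in Control 1, with a difference of -4.79 (SE 0.40) for MSA_ConA against ConA (edgeR, adjusted p = 0.000703). Of 17 inflammasome and pyroptosis genes, 0 were called higher and 3 lower (Nlrp3, Il1b and Il1a) for MSA_ConA against ConA, and 5 higher and 1 lower for ConA against Control. Nlrp3, the inflammasome sensor gene, had 12 counts in MSA_ConA 1, 100 in ConA 1 and 5 in Control 1. Il1b, whose cytokine caspase-1 matures, had 15, 189 and 26 counts in MSA_ConA 1, ConA 1 and Control 1. Il18, the other caspase-1 cytokine gene, was lower in ConA 1 (6.12 CPM) than in MSA_ConA 1 (18.9 CPM) or Control 1 (15.1 CPM) and passed in neither comparison (adjusted p = 0.0559 and 0.0688). These lists were chosen with earlier results of the data known, and the shares of all genes called are those given above for each comparison.

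**Figure D4:**
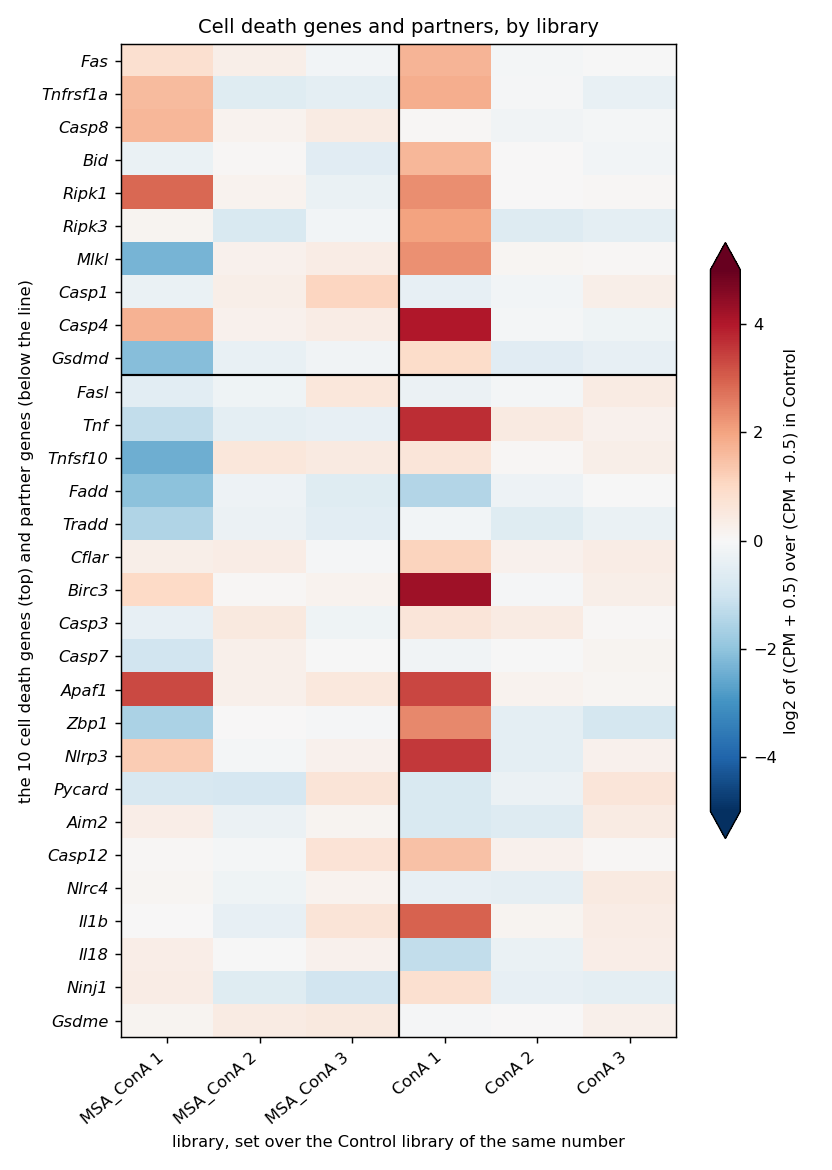
Log2 ratio of CPM + 0.5 in each MSA_ConA and ConA library over the Control library of the same number, for the 10 cell death genes (above the line) and their partner genes (below it). The column of ConA 1 is mostly red, with Casp4, Birc3, Tnf, Nlrp3 and Apaf1 the deepest; the column of MSA_ConA 1 holds both colours, with Apaf1, Ripk1, Casp4 and Casp8 red and Mlkl, Gsdmd, Tnfsf10, Fadd and Zbp1 blue, and the other 4 columns are pale.

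Marker sums of several other cell types moved with the same libraries, and skeletal muscle did not. The summed level of 7 neutrophil markers, all found in the table, was 62.0 CPM in MSA_ConA 1, 411.8 CPM in ConA 1 and 9.02 CPM in Control 1, against 2.73 to 6.90 CPM in numbers 2 and 3. Ly6g was at 0 in MSA_ConA 1, none of the 7 was at 0 in ConA 1, and Ly6g, Cxcr2 and Mmp8 were at 0 in Control 1. For monocytes and recruited macrophages (5 of 7 markers found) the sums were 100.3, 184 and 64.6 CPM in MSA_ConA 1, ConA 1 and Control 1, with Itgam at 0 in all 3 and a range of 52.6 to 70.8 CPM in the others. The T and NK cell markers (9 of 9) summed to 4.35, 9.13 and 8.13 CPM in the same order and to 3.88 to 6.37 CPM in the others, with Cd3d, Cd8a and Ncr1 at 0 in MSA_ConA 1. Kupffer cell markers (6 of 6) summed to 120.6 CPM in MSA_ConA 1, 197 CPM in ConA 1 and 347 CPM in Control 1, with 177 to 291 CPM in the others. Cholangiocyte markers (4 of 4) summed to 41.4, 654 and 11.5 CPM in MSA_ConA 1, ConA 1 and Control 1, of which Sox9 alone made up 37.9, 636 and 3.50 CPM, against sums of 4.27 to 8.20 CPM in the others. The sinusoidal endothelium (5 of 5) summed to 160 CPM in MSA_ConA 1, 159 CPM in ConA 1 and 254 CPM in Control 1, with 224 to 285 CPM in the others. Markers of stellate cells and fibroblasts (5 of 5) summed to 163, 373 and 209 CPM in the same order, with 309 to 589 CPM in the others, and those of B and plasma cells (5 of 5) to 5.80, 4.76 and 11.4 CPM, with 6.25 to 10.4 CPM in the others and Ms4a1 at 0 in MSA_ConA 1. Skeletal muscle markers (8 of 8) were highest in MSA_ConA 3, at 3589 CPM, beside 121 CPM for MSA_ConA 1 and 250 CPM for MSA_ConA 2. The ConA libraries 1, 2 and 3 had 2.91, 227 and 40.3 CPM of them, and the Control libraries 0.729 to 1.93 CPM. The hepatocyte markers (7 of 8 found), which define the labelled tissue, were abundant in every library. They summed to 139173 CPM in MSA_ConA 1, the highest, 89209 CPM in ConA 1, the lowest, and 110163 CPM in Control 1, with 99267 to 123905 CPM in the others. The part of these cell types in the levels of the 10 genes was not tested.

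The scaling matters for the libraries numbered 1. With library totals in place of TMM, the median tested gene lay at a log2 ratio of -0.22 for MSA_ConA 1 against ConA 1, -0.53 for ConA 1 against Control 1 and -0.76 for MSA_ConA 1 against Control 1. On that scale Ripk3 in MSA_ConA 1 was at 0.667 of Control 1 in place of 1.11, and Casp1 at 0.901 of ConA 1 in place of 1.06, so that both directions flipped. Fas in MSA_ConA 1 was then at 1.06 and Casp8 at 1.93 times Control 1, Mlkl at 0.0951 and Gsdmd at 0.135. The ratio of MSA_ConA 1 to ConA 1 on library totals was 0.0261 for Mlkl and 0.162 for Casp4.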

How the data were processed

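RNA-seq counts of 9 mouse livers, 3 per group, were used. Bowtie 0.12.2 appears in the submitters' processing notes beside the genome builds mm8 and mm10, without a role for any of them; for the counting tool and its strand setting the entry is "not given in the sources used here". The authors deposited raw counts per gene and FPKM values, and each FPKM equals the count over the gene length and 1 effective total per library. Genes carry C57BL/6NJ strain identifiers and positions; promoter sequences are RefSeq's, on GRCm38.p6. The 3 columns headed with the letter M were read as the MSA_ConA libraries, since no other group name starts with that letter.

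Counts were tested with edgeR 4.0.16 (R 4.3.3): quasi-likelihood, TMM scaling (factors 0.571 to 1.26), the default expression filter by group (14603 genes), all 9 libraries, and Benjamini-Hochberg adjusted p under 0.05. A fit with 6 means gave the tests between number classes. Labels say 3 mice per group. The spread between libraries is all that the p-values measure, and in the fit with 6 means it came from numbers 2 and 3 alone. Deviations from group means correlated between same-numbered libraries (number 1 at 0.487 to 0.718, number 2 at 0.357 to 0.564, number 3 at 0.323 to 0.480), all above the bound of 0.1. Numbers 2 and 3 correlated with each other as well (0.325 to 0.698). Deviations within a group cancel out, so an outlying number 1 moves 2 and 3 together. The check therefore cannot show that 2 pairs with 2 and 3 with 3. The main fits had no block, and the numbers paired the libraries only in the replicate block alternative. The alternatives comprised limma-voom (limma 3.58.1), DESeq2 1.42.0, other scalings and filters, the replicate block, limma on log2(FPKM + 1) or log2(FPKM + 0.1), and leaving out each library. Scripts were tested on simulated data. Exact 95% limits and the floor of 3 counts cover counting error only.

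The members and lists, and the division by number, were chosen with earlier results of these data known. All 10 members were named in every comparison; partners were fixed by function. Of 98 listed members and pathway genes, 91 were in the table (1 through a synonym, Dfna5 for Gsdme) and 7 were not found there.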

Additional observations from a re-analysis of the deposited data

Results flagged for a closer look

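In 21 cases the ratio of a member between groups differed between number 1 and numbers 2 and 3 in the edgeR test of that difference. Each value is the log2 ratio in number 1 minus that in numbers 2 and 3.

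For MSA_ConA against ConA the values were -5.23 for Mlkl, -3.31 for Gsdmd, -2.95 for Casp4, -2.11 for Ripk3, -1.83 for Bid, -1.05 for Fas and 1.18 for Casp8. For ConA against Control they were 4.71 for Casp4, 2.83 for Ripk3, 2.33 for Ripk1, 2.27 for Mlkl, 2.03 for Tnfrsf1a, 1.77 for Fas, 1.76 for Bid and 1.43 for Gsdmd. For MSA_ConA against Control they were 3.00 for Ripk1, 2.14 for Tnfrsf1a, 1.75 for Casp4, 1.38 for Casp8, -1.88 for Gsdmd and -2.96 for Mlkl. Each rests on a single library numbered 1 per group, and the comparisons share libraries. Over all genes tested, 18.7% were called for MSA_ConA against ConA, 31.1% for ConA against Control and 32.6% for MSA_ConA against Control. Some of the member calls were lost under alternatives, among them Fas and Ripk3 for MSA_ConA against ConA and Casp4 for MSA_ConA against Control.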

How the results depend on the processing

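No member was called in any comparison of groups under any alternative run, and no called value changed sign. Over all genes, DESeq2 called 2 genes for ConA against Control and 55 for MSA_ConA against Control, where edgeR called 0; the cause was not tested. The replicate block, in which the library numbers pair the libraries, called 0 genes in each comparison of groups. For the differences between number classes it called 1842 genes and 5 members for MSA_ConA against ConA, 3622 and 8 for ConA against Control, and 3926 and 5 for MSA_ConA against Control, and for Control 1 against Control 2 and 3 it called 3325 genes and 3 members.

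For the difference of MSA_ConA against ConA, limma-voom called 1623 genes in place of 2724; the cause was not tested. Leaving out 1 library gave 1368 to 2403 genes and 3 to 6 members, with 1631 genes and 3 members without ConA 2 and 1368 genes and 3 members without ConA 3, where a class then holds a single library. For Control 1 against Control 2 and 3, 5 members were called, against 3 on library totals and 3 with DESeq2; leaving out Control 2 or Control 3 gave 1340 to 3401 genes and 1 to 2 members. Leave-one-out fits gave 3071 to 3627 genes and 7 to 8 members for the difference of ConA against Control, and 3646 to 4197 genes and 5 members for that of MSA_ConA against Control. Mlkl, Gsdmd and Casp4 passed for MSA_ConA against ConA under all 14 alternatives. Of the member tests, 975 kept both their sign and their side of the threshold, 48 lost a call and 5 gained one. A further 52 values changed sign and were uncalled in both fits. Ratios in number 1 moved beyond their counting limits 19 times, all on library totals, and stayed within them 71 times. Depth limits Fasl, Tnf and, in numbers 2 and 3, Ripk3 and Casp4.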
